A study of Prunus persica with 8 samples.

Results

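In shoot tips of peach (Prunus persica), 131 genes away from the weeping locus had more transcript in every weeping tree than in any standard tree, and at least 2 times as much on average. They are 131 of the 21162 genes on scaffolds 1 and 4 to 8 (0.619%), in a table of 27864 genes. Membership was set by measured values. CPM is the total exon reads of a gene scaled to a library of 1000000 reads in genes, and a member had a mean of at least 2 CPM in weeping trees, a weeping mean at least 2 times the standard mean, and every weeping library above every standard library. At least 50% of its reads, summed over libraries, mapped uniquely, and the 200 genes of highest mean CPM on these scaffolds were left out. The same trees therefore chose the members and show their levels, so the contrast of weeping with standard is given below as a description, with no test.

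The samples were lateral branch tips of mature, field-grown trees, 4 of standard and 4 of weeping growth habit, from a segregating F2 population. Both groups come from the same cross between breeding parents and neither is a cultivar. Each library was 1 tree, from 4 shoot tips of about 4 cm, numbered 7 to 10 for standard and 1 to 4 for weeping trees, and the labels call the trees biological replicates. No allele or treatment other than habit is given, and a whole shoot tip mixes cell types, so more cells of a type and more RNA per cell cannot be told apart.

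Weeping branches bend downward instead of growing upward, and in peach the habit is inherited as a recessive trait caused by loss of WEEP, a gene on scaffold 3 that encodes a sterile alpha motif protein. In an F2, stretches of chromosome next to the locus travel with the habit, whereas the other chromosomes assort independently of it. The shoot tip holds the apical meristem and the youngest leaves and stem. The table gives identifiers without gene names and none of them matched the RefSeq gene table, so no function is assigned to a member, and genes are given by position on the table's own scaffolds. Sequences are not shown because none were at hand for these identifiers.

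Libraries held 17011614 to 21584724 reads in genes, with no detected difference in depth between habits (exact two-sided permutation p = 0.80; the smallest possible with 4 against 4 is 0.0286). Uniquely placed reads made up 94.4 ± 0.230% of the standard libraries and 95.1 ± 0.0692% of the weeping ones (SD over 4 trees, p = 0.0286 by the same exact test). WEEP itself (ppa013325m.g, linked to the name by knowledge of the study) was read 1615 to 1813 times per standard library and 3 to 9 times per weeping library. The column names place weeping trees 3 and 4 in lane 8 and all remaining trees in lane 6. Standard tree 9 and weeping tree 4 lay nearest to the opposite habit among these genes. The median gap between the groups, the spreads, the tree orders and the ratios that move most are therefore also given without them, an alternative added after the values were seen.

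The members together took 0.187, 0.184, 0.270 and 0.240% of the reads in standard trees 7 to 10 and 0.619, 0.523, 0.4997 and 0.448% in weeping trees 1 to 4. Each member had to be higher in every weeping library, so the rule itself fixed that these shares would not overlap. The median member had 3.46, 3.38, 5.27 and 4.73 CPM in the standard trees and 12.4, 11.8, 11.5 and 8.76 CPM in the weeping trees. The ratio of means had a median of 2.40, or 1.26 on the log2 scale. It was 1.01 among the 12820 genes on these scaffolds with a mean of 2 CPM or more over all 8 libraries. Most members lay near the lower limit: 108 had a ratio from 2 to 3, 15 from 3 to 4, 4 from 4 to 5 and 4 above 5. In level, 32 had a weeping mean under 5 CPM, 52 from 5 to 20, 31 from 20 to 100 and 16 above 100.

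**Figure D1:**
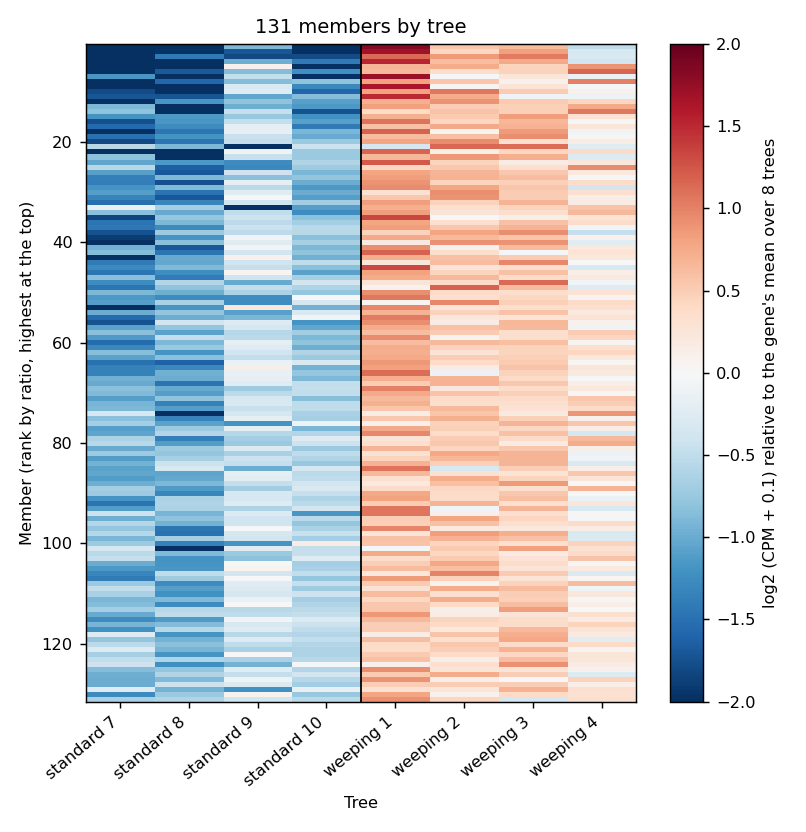
Each row is 1 of the 131 members, ranked by the ratio of mean weeping to mean standard CPM, and each column is a tree. Colour gives log2 of CPM plus 0.1 relative to the gene's mean over the 8 trees; the colour scale ends at 2 in either direction. Standard trees 7 and 8 are the darkest blue, and weeping tree 4 is the palest of the weeping trees.

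Fitted over the whole table, edgeR's quasi-likelihood test called 987 of 18520 genes higher in weeping trees at an adjusted p of 0.05 (5.33%). Of the members, all 131 passed the filter on low counts and 108 were among these calls. Since the rule used this contrast, nothing is read from that count. It was 2 with weeping tree 2 left out, when 9 genes of the whole table were called higher in weeping trees. It was 25 to 44 with standard tree 7, 8 or 10 or weeping tree 1 or 3 left out. Genes called higher over the whole table then numbered 117 to 226. It was 122 without standard tree 9, when 1760 of 18671 genes were called higher. Without weeping tree 4 it was 117, when 1660 of 18718 genes were. A mirrored rule for genes lower in weeping trees found 366 genes on the same scaffolds.

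How far the arrangement of trees chose the members is shown by the share of genes that met that criterion alone. Among the 12277 genes that met the criteria of level, single-position reads and abundance, 1225 had every weeping library above every standard library (9.98%), and 1094 of these fell short of the 2-fold ratio. Another 98 genes met everything but the separation of the trees, 52 everything but the level, 4 everything but the share of single-position reads, and 1 was left out only as an abundant gene. The lowest weeping library exceeded the highest standard library by a median factor of 1.30 over members, which was 1.67 without standard tree 9, 1.55 without weeping tree 4 and 1.89 without both. That factor was 1.5 or more in 33 members and 2 or more in 6, and it was under 1.1 in 24, where the groups barely parted. The narrowest was the gene at 10733688 to 10733993 on scaffold 8, a factor of 1.006. The widest was the gene at 14546420 to 14547916 on scaffold 8, a factor of 2.73.

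The member of highest ratio was ppa005988m.g, a gene of 3239 bp from 15603524 to 15606762 on scaffold 7. It had 0, 1, 17 and 1 reads in standard trees 7 to 10 and 127, 58, 51 and 21 reads in weeping trees 1 to 4. It was at or near 0 in 3 standard trees, while the lowest weeping tree was 1.34 times standard tree 9. In CPM these are 0, 0.0563, 0.923 and 0.0503 in standard and 6.61, 2.69, 2.85 and 1.23 in weeping trees, where a count of 0 in standard tree 7 allows up to 0.162 CPM. The means were 0.257 ± 0.444 CPM in standard and 3.35 ± 2.29 CPM in weeping trees (SD, n = 4 each), a ratio of 12.998. That ratio rests on standard tree 9, since the other 3 standard libraries held 2 reads in all, too few for a ratio without it.

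Next came the gene at 14546420 to 14547916 on scaffold 8, with 0.649, 1.29, 1.57 and 1.01 CPM in standard trees 7 to 10 and 17.3, 7.18, 9.56 and 4.29 CPM in weeping trees 1 to 4. Its groups were the best separated of all members, although weeping tree 1 had 4.03 times the level of weeping tree 4. The ratio of means was 8.47. The gene at 10045186 to 10046893 on scaffold 1 had 1.14, 2.36, 1.79 and 1.81 CPM in the standard trees and 14.3, 11.8, 13.4 and 5.23 CPM in the weeping trees, a ratio of 6.296. Here 3 weeping trees were close together and weeping tree 4 was the low one. A longer gene at 8954769 to 8958305 on scaffold 5 (3537 bp) had 2.11, 2.25, 9.01 and 6.59 CPM in standard and 51.2, 27.4, 30.3 and 13.5 CPM in weeping trees, a ratio of 6.13. In it standard trees 7 and 8 were low, standard trees 9 and 10 were higher, and weeping trees 1 and 4 stood at the ends of the weeping range.

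For the gene at 8759540 to 8760179 on scaffold 5 the standard trees had 0.487, 0.731, 5.81 and 0.755 CPM and the weeping trees 8.69, 9.08, 7.38 and 10.1 CPM (ratio 4.53, and 13.4 without standard tree 9). Standard tree 9 was set apart from the other standard trees and close to the weeping trees, which differed 1.37-fold among themselves. The gene at 20840027 to 20841971 on scaffold 7 had 2.06, 2.87, 5.103 and 3.93 CPM in standard and 14.7, 12.1, 12.96 and 21.2 CPM in weeping trees (ratio 4.37), and weeping tree 4 was its highest library. The gene at 4690496 to 4690765 on scaffold 6, only 270 bp long, had 0.487, 0.731, 1.25 and 1.31 CPM in standard and 4.22, 3.52, 2.51 and 4.88 CPM in weeping trees (ratio 4.01). It was likewise highest in weeping tree 4, which was the lowest weeping tree for most members.

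Of the remaining members among the 10 highest ratios, the gene at 12160792 to 12163068 on scaffold 8 had 1.14, 0.563, 1.9002 and 0.503 CPM in standard and 9.11, 2.64, 3.19 and 2.41 CPM in weeping trees (ratio 4.23). Only 62.1% of its reads mapped uniquely, so its level is uncertain where reads are shared with a similar sequence. The gene at 1235833 to 1237721 on scaffold 7 had 0.757, 0.731, 2.88 and 1.41 CPM in standard and 11.3, 3.75, 4.36 and 3.53 CPM in weeping trees (ratio 3.98). In both genes weeping tree 1 was well above the other 3 weeping trees. The gene at 41665978 to 41667899 on scaffold 1 had 1.35, 1.01, 4.07 and 1.56 CPM in standard and 8.59, 10.3, 7.04 and 5.23 CPM in weeping trees (ratio 3.901, and 5.96 without standard tree 9), with 59.7% of reads at a single position, and standard tree 9 again was the highest standard tree. Of the 131 members, 4 had a ratio over 1.5 times larger without standard tree 9, namely ppa005988m.g, the genes at 8.76 Mb on scaffold 5 and 41.67 Mb on scaffold 1, and the gene from 4905950 to 4906261 on scaffold 6, whose ratio was 2.48 with it and 3.75 without. Leaving out weeping tree 4 moved 0 ratios that far.

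**Figure D2:**
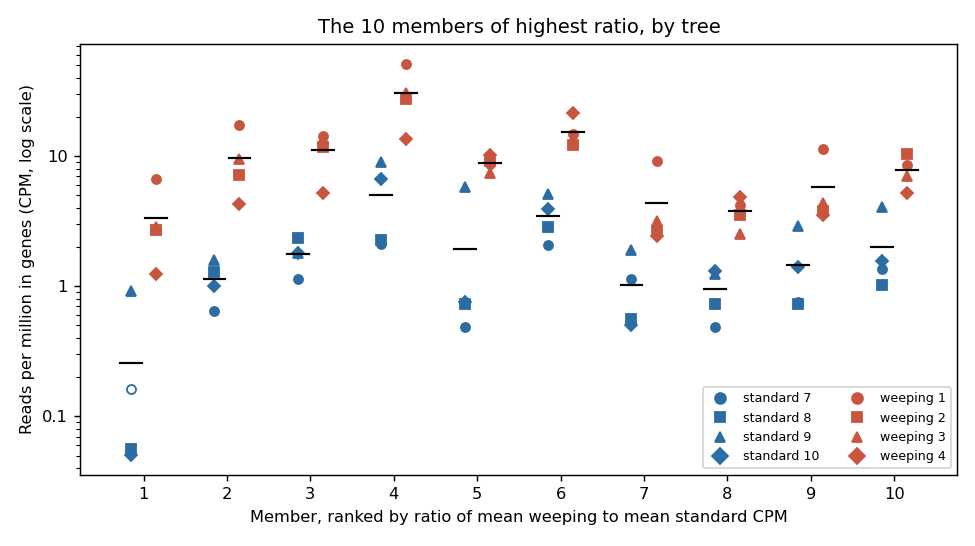
CPM on a log axis for the 10 members of highest ratio, with a marker shape for each tree, blue for standard and red for weeping; black bars are the means of 4 trees. The hollow circle is a library with 0 reads, drawn at the 3-read limit of 0.162 CPM. Standard tree 9 (blue triangles) is the highest standard tree in 8 of the 10.

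The 10 members of highest weeping CPM had ratios between 2.10 and 2.56, around the median of 2.40 over all members. The first was ppa023999m.g, at 21947112 to 21947849 on scaffold 6, with 177, 119, 154 and 195 CPM in standard trees 7 to 10 and 328, 375, 290.3 and 433 CPM in weeping trees 1 to 4. Its lowest weeping library was 1.49 times its highest standard library, and the ratio of means was 2.21. The gene at 41924072 to 41925010 on scaffold 1 had 149, 109, 148 and 193 CPM in standard and 313, 319, 296 and 382 CPM in weeping trees (ratio 2.19). Both were lowest in standard tree 8 and highest in weeping tree 4. Per length, as deposited RPKM over the gene span, they were also the highest members, with 420.5 ± 71.9 and 303 ± 34.1 RPKM in weeping trees against 190.4 ± 39.2 and 139 ± 32.3 in standard trees (SD, n = 4 each).

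The gene at 10983325 to 10986209 on scaffold 7 had 154, 119, 174 and 135 CPM in standard and 318, 345, 291 and 301 CPM in weeping trees (ratio 2.16), with weeping trees within 1.19-fold of each other. The gene at 19899693 to 19902240 on scaffold 8 had 81.4, 131, 217 and 125 CPM in standard and 386, 295, 261 and 221 CPM in weeping trees (ratio 2.098), and there standard tree 9 nearly reached weeping tree 4. The longest of these abundant members, at 13713686 to 13723339 on scaffold 5 (9654 bp), had 78.96, 104, 139 and 107 CPM in standard and 475, 228, 243 and 154 CPM in weeping trees (ratio 2.56). Weeping tree 1 had 3.08 times the level of weeping tree 4 in it.

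The gene from 24429615 to 24431551 on scaffold 1 had 78.4, 102, 149 and 89.8 CPM in standard and 286, 236, 226 and 185 CPM in weeping trees (ratio 2.22). The gene at 40726933 to 40729290 on scaffold 1 had 61.01, 71.5, 90.99 and 76.2 CPM in standard and 216, 181, 179 and 148 CPM in weeping trees (ratio 2.41). Both had the same order of weeping trees, from tree 1, the highest, to tree 4, the lowest. The gene at 10774837 to 10776768 on scaffold 5 varied little within each habit, 1.199-fold in weeping and 1.42-fold in standard trees, with 53.1, 45.2, 64.3 and 58.8 CPM in standard and 146, 137, 122 and 136 CPM in weeping trees (ratio 2.45).

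Another abundant gene, at 1884468 to 1885761 on scaffold 8, had 55.2, 49.01, 60.1 and 70.7 CPM in standard and 198, 115, 128 and 115 CPM in weeping trees (ratio 2.37), with 89.03% of reads at a single position. The short gene at 15033404 to 15033815 on scaffold 8 (412 bp) had 47.7, 65.6, 66.3 and 66.1 CPM in standard and 192, 128, 149 and 77.2 CPM in weeping trees (ratio 2.22). In this gene 3 standard trees were within a narrow band and standard tree 7 was low. Per length it came next after those of the highest level above, at 289 ± 101 RPKM in weeping and 130.03 ± 19.5 RPKM in standard trees (SD, n = 4 each). Over all members the mean weeping level ran from 0.446 to 420 RPKM with a median of 6.79, against 7.68 for all genes of 2 CPM or more, and 14 members exceeded 50 RPKM. In standard trees the medians were 2.65 and 7.75 RPKM. Not scaled by length, the median member had 10.6 CPM in weeping and 4.18 CPM in standard trees, against 25.1 and 24.8 CPM for all such genes.

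The median spread within a habit was larger in members than over all genes of 2 CPM or more. Across weeping trees the highest library was a median of 1.69 times the lowest in members, against 1.35 over the 12820 genes, and across standard trees it was 2.07 against 1.34. The 1094 genes that met every criterion but the ratio had 1.22 and 1.24. Separated groups with a ratio under 2 leave less room for spread within a habit, so that set is no neutral comparison. Members also had lower levels, with a median of 4.18 CPM in standard trees. It was 24.8 CPM over the 12820 genes and 32.7 CPM in the 1094, and the part of level in the spread was not tested. Without weeping tree 4 the members' median spread was 1.36 across weeping trees, and without standard tree 9 it was 1.63 across standard trees. The steadiest members within weeping trees were the gene at 10963679 to 10968771 on scaffold 1, with 14.7, 13.7, 13.5 and 14.3 CPM in weeping and 5.41, 5.68, 8.36 and 7.702 CPM in standard trees, and the gene at 30614880 to 30620180 on scaffold 1, with 61.8, 67.8, 60.9 and 61.4 CPM in weeping and 32.7, 26.3, 32.9 and 31.1 CPM in standard trees. Their weeping trees differed 1.09-fold and 1.11-fold. The most variable were the members of highest and second highest ratio, ppa005988m.g and the gene at 14.55 Mb on scaffold 8, at 5.36-fold and 4.03-fold.

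Some trees were at the top or bottom of their habit in many more members than others. Of the 131 members, 73 (55.7%) were highest in weeping tree 1 and 80 (61.1%) were lowest, among weeping trees, in weeping tree 4. Over all 12820 genes of 2 CPM or more, weeping tree 1 was the highest in 17.8% and weeping tree 4 the lowest in 32.3%. Among standard trees, tree 9 was the highest in 94 members (71.8%) against 26.98% of all such genes, and tree 7 or tree 8 was the lowest in 66 and 53 members (50.4 and 40.5%) against 26.3 and 27.6%. Tree 9 topped the standard trees with tree 7 at the bottom in 53 members and with tree 8 at the bottom in 37. Without tree 9, standard tree 10 was the highest in 96 members and tree 7 or 8 the lowest in 68 and 58. Without weeping tree 4, weeping tree 1 was the highest in 76 members, and trees 1, 2 and 3 were the lowest in 28, 56 and 47.

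Relative to its habit's mean, the median member was at 0.788, 0.817, 1.30 and 1.04 in standard trees 7 to 10, and at 1.15, 0.981, 0.988 and 0.800 in weeping trees 1 to 4. For all genes of 2 CPM or more these medians were between 0.951 and 1.03. Standard trees 7 and 8 and weeping tree 1 were therefore the trees in which members were most extreme, and standard tree 9 and weeping tree 4 those in which they were least so. Among the 1094 genes short of the ratio, medians were 0.975, 0.945 and 1.04 in standard trees 7, 8 and 9. Weeping tree 4 was at 0.949. These trees thus leaned the same way by less, but weeping tree 1 did not, at 0.984. Weeping trees 2 and 3 were the highest there, at 1.03 and 1.01. The arrangement that ran 1, 3, 2, 4 from the highest to the lowest weeping tree was the most frequent, in 30 members (22.9%). Among standard trees the most frequent was 9, 10, 8, 7, in 38 members (29.0%), followed by 9, 10, 7, 8 in 31 (23.7%).

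**Figure D3:**
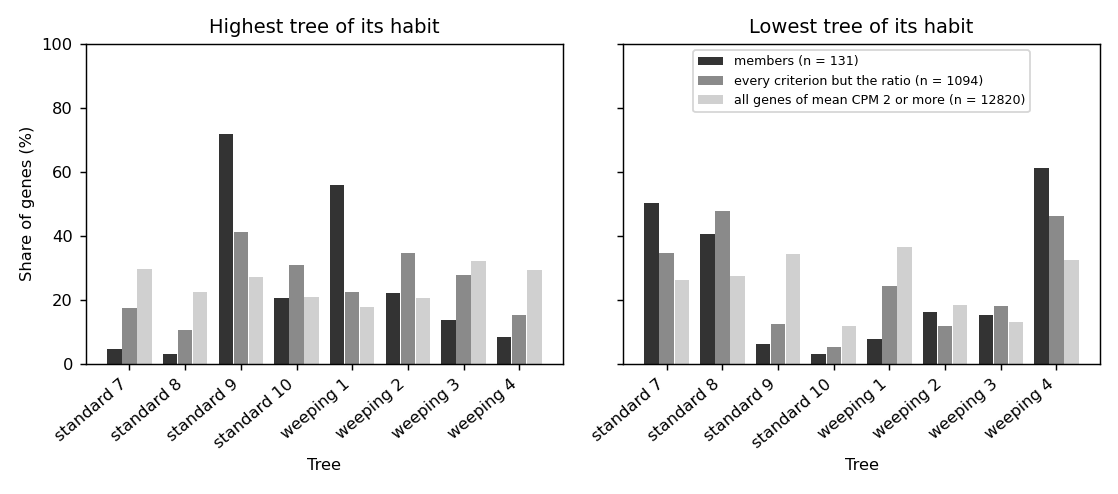
Bars give the percentage of genes in which each tree was the highest (left) or the lowest (right) of the 4 trees of its habit. Dark bars are the 131 members, mid-grey bars the 1094 genes that met every criterion but the ratio, and light bars the 12820 genes of 2 CPM or more. Standard tree 9 and weeping tree 1 lead the left panel for members, at 71.8% and 55.7%, and weeping tree 4 leads the right panel at 61.1%.

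Among members, orders in the 2 habits went together in part. Where weeping tree 4 was the lowest weeping tree, standard tree 9 was the highest standard tree in 65 of 80 members (81.2%), against 29 of the other 51 (56.9%). The like shares over other genes were not computed. Both trees lay nearest to the opposite habit, where the rule set its limit, so nothing is read from this pairing. In the 11 members that peaked in weeping tree 4, standard tree 8 was the lowest standard tree in 8 (72.7%), and standard trees 9 and 10 were each the highest in 5. Standard tree 8 was the lowest in 26.6% of all genes of 2 CPM or more that peaked in weeping tree 4, and in 55.7% of those among the 1094 genes short of the ratio. In the 73 that peaked in weeping tree 1, standard tree 7 was the lowest in 41 (56.2%) and standard tree 9 the highest in 55 (75.3%). The like shares were 44.7 and 54.3% over all genes that peaked in weeping tree 1, and 47.1 and 62.3% among the 1094, so genes outside the module also paired these trees. The 11 members that peaked in weeping tree 4 were short, with a median span of 939 bp, and had a median weeping level of 28.7 CPM; the 73 had 1823 bp and 13.002 CPM. These subsets were formed after the values were seen and share the libraries that chose the members, so no test is given.

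Since each choice uses all trees, the rule was also applied to 7 trees at a time and the tree left out was then read. The trees it is set against were still those that chose the genes, so the choice itself favours its lying on the side of its habit. The share over all genes, which were not chosen, is not the value that no difference would give, and the counts below compare the trees with each other as a description. With standard tree 7 left out, 124 genes met the rule, and standard tree 7 was below every weeping tree in 118 of them (95.2%), against 31.9% of all genes of 2 CPM or more. The corresponding counts were 107 of 112 (95.5%) for standard tree 8, against 33.9% of all genes, and 143 of 151 (94.7%) for standard tree 10, against 25%. For a weeping tree left out, the genes in which it exceeded every standard tree were 115 of 122 (94.3%) for tree 1, 128 of 133 (96.2%) for tree 2 and 128 of 132 (97.0%) for tree 3. The same held for 27.7, 33.6 and 37.4% of all genes.

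Standard tree 9 and weeping tree 4 gave another picture. Without standard tree 9, 375 genes met the rule, and standard tree 9 was below every weeping tree in 169 of them (45.1%), against 26.5% of all genes. Without weeping tree 4, 298 genes met the rule, and weeping tree 4 was above every standard tree in 157 (52.7%), against 22.3% of all genes. Without both trees 554 genes met the rule, 126 of the 131 among them, and the median ratio of the 131 was 1.42 on the log2 scale.

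**Figure D4:**
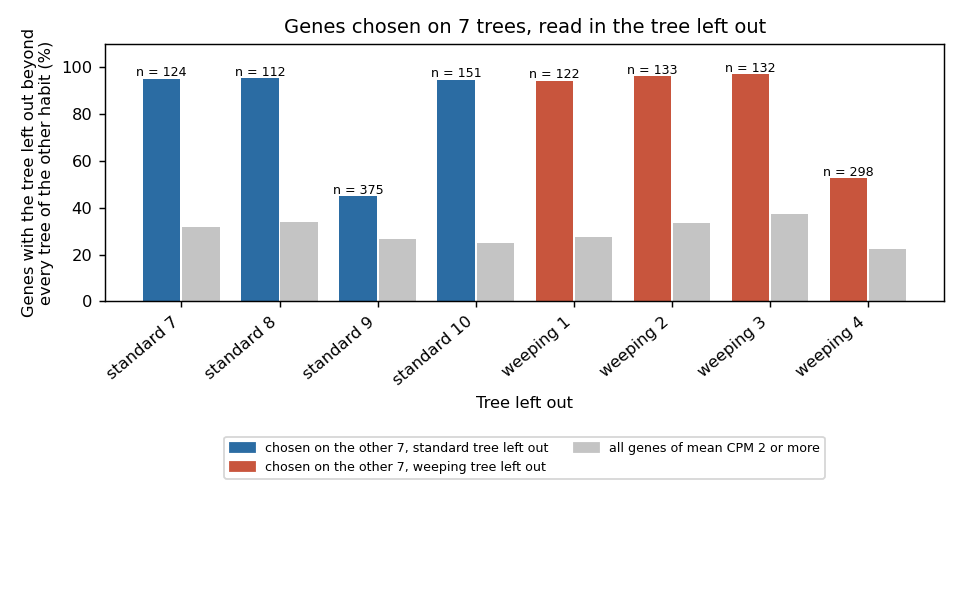
For each tree left out, the coloured bar is the percentage of the genes chosen on the other 7 trees (their number above the bar) in which that tree lay beyond every tree of the other habit, and the grey bar is the same over all genes of 2 CPM or more. Coloured bars are 94.3 to 97.0% for 6 trees and 45.1 and 52.7% for standard tree 9 and weeping tree 4; the choice on the other trees favours high values in all of them.

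Lane was examined as a contrast that the rule did not set directly, since it differs among weeping trees only. Each weeping library still had to exceed every standard library, so the choice can shape how members differ among weeping trees. In a fit of habit and lane over all genes, 3 of 18977 genes passed an adjusted p of 0.05 by edgeR between the weeping trees of lane 8 and lane 6 (0.0158%), and 0 of the 131 members did. At an unadjusted p under 0.05 there were 2 members (1.53%) against 715 of all genes (3.77%). No other tool was run for this contrast of 2 trees with 2, which could detect few differences. Yet 112 of the 131 members were lower in lane 8, with a median of -0.31 on the log2 scale against -0.0011 for all genes. Weeping tree 1, most often the highest, ran in lane 6 and weeping tree 4, most often the lowest, in lane 8; the part of lane in the tree order was not tested. With weeping tree 1 left out, which leaves tree 2 alone in lane 6, 85 members were lower in lane 8. With weeping tree 4 left out, which leaves tree 3 alone in lane 8, 105 were. The like shares over all genes were not computed, so whether the counts in these fits are particular to members was not tested. Against the standard trees, which were all in lane 6, the weeping trees of lane 6 alone had a median ratio of 2.59 over members, and 122 members stayed at 2 or more. The weeping trees of lane 8 had a median ratio of 2.19, with 97 members at 2 or more. The rule used these same libraries and so favoured high ratios in either lane, and nothing is read from these counts.

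Members were spread over all 6 scaffolds. There were 36 on scaffold 1, 18 on scaffold 4, 17 on scaffold 5, 19 on scaffold 6, 15 on scaffold 7 and 26 on scaffold 8. As a share of all genes, this was 0.516 to 0.689% on scaffolds 1 and 4 to 7 and 0.915% on scaffold 8. Set against the number of genes of 2 CPM or more, it was 0.834 to 1.06% and 1.58%. That number rests on the mean over all libraries, and some members are not in it, since they needed 2 CPM in weeping trees only. Divided by the position of the last gene, 42, 33 and 56 members fell in the first, middle and last of 3 equal stretches of their scaffolds (32.1, 25.2 and 42.7%). All genes of 2 CPM or more were divided much alike, at 29.2, 25.1 and 45.7%. The median gap from 1 member to the next on a scaffold was 786 kb. On scaffolds 2 and 3, which were outside the rule, another 39 genes met the same criteria.

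Only 3 pairs of members were direct neighbours in gene order, and all 3 were of short genes. The closest pair, 353 bp apart on scaffold 8, was the gene from 318663 to 319028 and the gene from 319382 to 320371. The first had 0.811, 1.01, 2.23 and 0.906 CPM in standard trees 7 to 10 and 3.904, 4.401, 4.25 and 3.06 CPM in weeping trees 1 to 4. The second had 0.757, 1.63, 1.9002 and 1.86 CPM in standard and 3.85, 4.86, 5.36 and 1.999 CPM in weeping trees. Among weeping trees both were lowest in tree 4, and among standard trees both were highest in tree 9, with ratios of 3.15 and 2.61.

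The second pair, also on scaffold 8 and 2.78 kb apart, was the gene from 16050084 to 16050554 and the gene from 16053332 to 16053616. Levels were 3.46, 5.12, 6.68 and 5.99 CPM in standard and 16.8, 12.2, 14.5 and 12.5 CPM in weeping trees for the first, a ratio of 2.64. They were 1.19, 1.13, 5.16 and 3.17 CPM in standard and 12.2, 5.88, 7.32 and 7.05 CPM in weeping trees for the second, a ratio of 3.05. Weeping tree 1 was the highest and weeping tree 2 the lowest library of the habit for both.

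The third pair, 4.16 kb apart on scaffold 6, belonged to a run of 4 consecutive genes in which every weeping tree was above every standard tree. The gene from 6890515 to 6891390 on scaffold 6 had 4.597, 2.03, 4.34 and 3.83 CPM in standard and 15.4, 12.1, 12.01 and 14.6 CPM in weeping trees (ratio 3.66), and its neighbour from 6895547 to 6896413 on scaffold 6 had 24.4, 11.5, 14.6 and 21.8 CPM in standard and 47.8, 52.03, 45.4 and 68.95 CPM in weeping trees (ratio 2.96). Of their reads 63.8 and 64.96% were placed at a single position. The gene before them, from 6881166 to 6883137 on scaffold 6, had 6.71, 2.19, 8.58 and 4.08 CPM in standard and 17.2, 13.8, 13.8 and 22.4 CPM in weeping trees, a ratio of 3.11, and was no member because only 46.6% of its reads mapped uniquely. One gene further, from 6872740 to 6873911 on scaffold 6, another member had 15.3, 3.43, 19.4 and 7.903 CPM in standard and 35.2, 39.8, 37.05 and 55.6 CPM in weeping trees (ratio 3.65), with 98.9% of reads at a single position. All 4 were lowest in standard tree 8, and 3 were highest in weeping tree 4. Reads that fit more than 1 of these genes may be counted in either, so the values of the 3 genes with low shares are uncertain. This run was followed up after its values were seen.

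**Figure D5:**
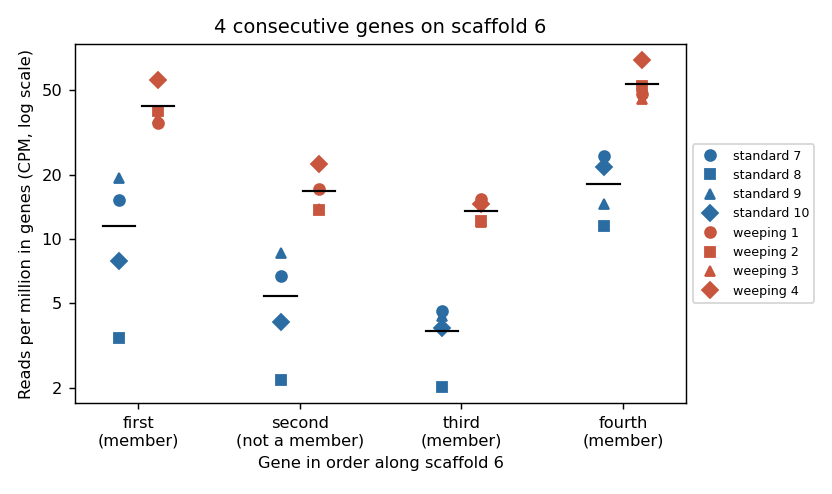
CPM on a log axis for 4 consecutive genes on scaffold 6, in order along the scaffold, with marker shapes for trees, blue for standard and red for weeping, and black bars for means of 4 trees. In each gene all weeping trees lie above all standard trees; the second gene is no member because only 46.6% of its reads were placed at 1 position.

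Within 25 kb of each other, a distance chosen after the positions were seen, there were 9 neighbouring pairs of members that held 17 members in 8 groups. Between the 306 bp genes from 10733688 to 10733993 on scaffold 8 and from 10738052 to 10738357 on scaffold 8, with ratios of 2.2002 and 2.58, lay a gene from 10735876 to 10736536 on scaffold 8 with 5.57, 5.18, 9.01 and 6.54 CPM in standard and 17.4, 8.48, 11.6 and 13.05 CPM in weeping trees, a ratio of 1.92. Its groups overlapped, since standard tree 9 was above weeping tree 2. The genes from 6943549 to 6944687 on scaffold 4 and from 6951026 to 6953355 on scaffold 4 had ratios of 2.46 and 2.501, and the gene between them, from 6947140 to 6948040 on scaffold 4, had 4.11, 2.64, 3.15 and 4.43 CPM in standard and 3.44, 2.41, 3.24 and 3.35 CPM in weeping trees with overlapping groups. The genes from 19889697 to 19893018 on scaffold 8 and from 19899693 to 19902240 on scaffold 8, with ratios of 2.09 and 2.098, enclosed a gene from 19895359 to 19898761 on scaffold 8 with 20.98, 15.6, 15.04 and 15.6 CPM in standard and 20.9, 21.03, 18.7 and 16.5 CPM in weeping trees, again overlapping. On scaffold 1, the members from 11811896 to 11812890 and from 11834557 to 11835276, with ratios of 2.54 and 3.43, enclosed 3 genes with ratios of 0.738, 1.19 and 1.54. The last of these, from 11830171 to 11833586 on scaffold 1, had 8.76, 7.43, 8.14 and 10.2 CPM in standard and 13.4, 14.4, 14.2 and 10.9 CPM in weeping trees, every weeping tree above every standard tree. The groups of the other 2 overlapped. Also on scaffold 1, the members from 41665978 to 41667899 and from 41682843 to 41684901 had ratios of 3.90 and 3.13 and enclosed 2 genes. The first of these had 1 read in standard tree 7, 2 in standard tree 9 and 1 in weeping tree 4. The second had 0 reads in every library, so this pair had no gene with an appreciable level between its members. Of all genes next to a member, 175 that are not members had 2 CPM or more. Their median ratio was 1.08 against 1.01 for all genes, 116 were above 1 (66.3% against 52.8%), and 22 had every weeping library above every standard library (12.6% against 9.80%). The values for all genes are over those of 2 CPM or more and, unlike the 175, do not leave out members.

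The median member was shorter than the median gene of 2 CPM or more, but near the median of 2090 bp over all genes of these scaffolds. Their median span, introns included, was 2020 bp (quartiles 1147.5 and 3326.5 bp), against 2724.5 bp for the genes of 2 CPM or more and 3413 bp for the 1094 that met every criterion but the ratio. Spans under 600 bp made up 9.92% of members (13 genes), against 3.74% and 1.92%. Spans over 5000 bp also made up 9.92% (13 genes), against 16.8% and 24.9%. The sets were not matched for level, which is not scaled by length in CPM. Their median weeping levels were 10.6 CPM in members, 25.1 CPM in genes of 2 CPM or more and 43.8 CPM in the 1094. Across members the ratio was only loosely related to span (Spearman rho -0.18 over 131 genes that share their libraries) and not visibly to weeping CPM (rho -0.04). Unlike the test of read counts, RPKM divides by this span, so introns lower the RPKM of long genes.

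The longest member, from 3789856 to 3805479 on scaffold 1 (15624 bp), had 17.6, 9.28, 14.4 and 13.99 CPM in standard and 23.4, 31.2, 34.8 and 24.04 CPM in weeping trees, a ratio of 2.05. The shortest, from 10590388 to 10590606 on scaffold 8 (219 bp), had 1.35, 2.19, 2.71 and 2.27 CPM in standard and 4.68, 3.799, 5.14 and 3.94 CPM in weeping trees, a ratio of 2.06, with 52.7% of reads at a single position. Of all members, 98 had at least 99% of reads at a single position (74.8%, against 84.2% of the genes of 2 CPM or more), and 22 had under 90%. One of the latter, from 23335825 to 23343471 on scaffold 4, chosen after its values were seen, had 16.2, 12.7, 0.163 and 17.7 CPM in standard and 18.8, 53.1, 51.7 and 20.05 CPM in weeping trees. Standard tree 9, usually the highest standard tree for members, was almost without its reads, and only 52.5% of the reads had a single position.

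Close to the ratio limit of 2, the last members inside were the gene from 14337294 to 14337769 on scaffold 8, with 0.973, 1.01, 1.19 and 1.06 CPM in standard and 3.07, 2.18, 1.23 and 1.999 CPM in weeping trees, and the gene from 42095373 to 42096301 on scaffold 1, with 12.8, 18.6, 32.95 and 18.5 CPM in standard and 54.4, 33.4, 40.7 and 38.9 CPM in weeping trees. Their ratios were 2.0003 and 2.02. Just outside were the gene from 15484273 to 15487613 on scaffold 7, with 13.9, 10.97, 15.8 and 15.3 CPM in standard and 33.5, 26.9, 28.6 and 22.8 CPM in weeping trees, and the gene from 1800559 to 1803892 on scaffold 8, with 54.8, 33.5, 45.6 and 59.3 CPM in standard and 77.4, 109.9, 82.4 and 116 CPM in weeping trees, at ratios of 1.997 and 1.995. The gap between the groups was wider in the genes outside, whose lowest weeping library was 1.44 and 1.304 times the highest standard library, than in those inside, at 1.03 and 1.01 times. At the level limit of 2 CPM, the gene from 14759312 to 14760403 on scaffold 4 was just inside with 0.919, 0.619, 1.52 and 0.956 CPM in standard and 2.24, 2.04, 2.07 and 1.82 CPM in weeping trees (weeping mean 2.04). The genes from 10533771 to 10534070 on scaffold 8 and from 37106315 to 37109495 on scaffold 1 were just outside, with weeping means of 1.98 and 1.90 CPM and ratios of 2.24 and 2.62. At this level a weeping library held 21 reads or more in any member, and the fewest reads of a member over all 4 standard trees were 19, in ppa005988m.g.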

How the data were processed

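RNA from lateral shoot tips of 4 standard and 4 weeping trees was made into 50 bp unpaired libraries, per the labels' protocols. Total exon reads and unique exon reads, both deposited as counts per gene, and RPKM, which the authors computed per library per the file headers, were read from the deposited table, whose reads were trimmed before mapping per the column names. The aligner, the build and the gene models are not given in the sources read. The 122 other columns of the table were not used.

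Groups follow the growth habit in the labels. CPM was computed here from total exon reads and library sums, and positions are printed counting from 1. EdgeR 4.0.16 (R 4.3.3) was run on total exon reads of all genes with TMM scaling, the filter on low counts at a minimum of 10, the quasi-likelihood test and Benjamini-Hochberg adjustment at 0.05, and was tested on simulated data. Alternatives used DESeq2 1.42.0, limma 3.58.1 (voom), other scalings, filters and thresholds, unique reads, lane, and each tree left out. Single values per library were compared with exact permutation tests (scipy 1.17.1). No replicate pair agreed within sampling noise, the closest pair differing with a chi-square over its degrees of freedom of 16.2. Libraries held 17011614 to 21584724 reads, and limits from counts cover counting error only. The labels call the trees biological replicates.

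The genes described singly are the 10 members of highest ratio, the 10 of highest weeping level, neighbouring members, genes next to each limit, the longest and shortest members, and those of largest and smallest spread over weeping trees. Genes between or beside neighbouring members, those at the widest and narrowest gap between groups, and 1 gene on scaffold 4 were added after their values were seen. The members, lists and rules were chosen with earlier results of these data known. Lists by gene function could not be applied, since 0 of 27864 identifiers matched the RefSeq gene table (assembly NCBIv2).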

Additional observations from a re-analysis of the deposited data

Results flagged for a closer look

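In 82 sets of 4 libraries, for 37 genes described singly and 4 values per library in each habit, the gap of the highest or lowest library to the next was divided by the range of the 4. It passed Dixon's 95% critical value in 8. Chance gives about 1 in 20 for independent sets that were not picked by their values. The genes here were picked by values in the same libraries, so nothing is read from the number passed. In standard trees the library apart was tree 9, as the highest, for ppa005988m.g (0.939) and for the gene at 8.76 Mb on scaffold 5 (0.950). It was tree 9 again, as the highest, for the gene from 318663 to 319028 on scaffold 8 (0.858). It was tree 7, as the lowest, for the gene at 15.03 Mb on scaffold 8 (0.963). In weeping trees it was tree 1, as the highest, for the genes at 12.16 Mb on scaffold 8 (0.884), 1.24 Mb on scaffold 7 (0.894) and 1.88 Mb on scaffold 8 (0.849). It was tree 2, also the highest, for the gene at 30.61 Mb on scaffold 1 (0.866).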

How the results depend on the processing

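No paired analysis was possible because the standard trees are numbered 7 to 10 and the weeping trees 1 to 4, so the groups share no replicate number. The number of members was 131, and it was 422 at a ratio of 1.5, 23 at a ratio of 3, 316 within lane 6 and 554 without standard tree 9 and weeping tree 4, a setting chosen after seeing the data. It ranged from 112 to 375 with each tree left out. Other settings gave 99 to 145. Calls over all genes by edgeR, higher or lower, numbered 2131. DESeq2 gave 3872, 5076 were called by edgeR without both trees, and the range with each tree left out was 20 to 3923. Members among the calls numbered 108, and 2 to 122 with each tree left out. The cause of these shifts was not tested. The median log2 ratio of members was 1.26, and 1.16 to 1.37 with each tree left out. Lane calls among members numbered 0 in each setting run, but the contrast of 2 trees with 2, or of 1 with 2 where a weeping tree was left out and the lone tree was assumed to vary like the others, leaves little room for any, so this says nothing about stability. Few trees and, in the weakest members, few reads in standard trees limit the precision.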
